A study of Mus musculus with 12 samples.

Results

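The genes described here are 10 that encode enzymes of serine, one-carbon and proline synthesis: Phgdh, Psat1, Psph, Shmt1, Shmt2, Mthfd2, Mthfd1l, Aldh18a1, Pycr1 and Cth. They were chosen by symbol, and the count table held a row for each of them among its 26214 gene symbols. All 12 libraries are from the immortalized mouse line mLTC-1, which derives from Leydig cells, the cells of the testis that produce androgens. The control group is 6 libraries of cells given the vehicle DMSO. The MSNBA group is 6 libraries of cells given MSNBA at 100 µM, an amine that joins a benzodioxole to a nitrophenyl ring bearing a methylsulfonyl group. The series presents it as a compound that inhibits Glut5, a fructose transporter. Both groups were the same line in the same medium, with fetal bovine serum and added glutamine, and RNA was taken after 24 h. A single line was used, and its medium, RPMI, contains serine, glycine and proline in its usual recipe.

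Serine is made from the glycolytic intermediate 3-phosphoglycerate in a chain of reactions catalysed by Phgdh, Psat1 and Psph. The Shmt enzymes then pass a carbon of serine to folate, and Mthfd2 and Mthfd1l carry that carbon through the mitochondrion towards formate, which feeds purine and thymidylate synthesis. Proline is made from glutamate by Aldh18a1 and then Pycr1, and Cth is the second enzyme of transsulfuration, which makes cysteine with serine as a substrate. Many of these genes are textbook targets of Atf4, a transcription factor whose translation rises when amino acids run short or the endoplasmic reticulum is stressed. Ddit3 (Chop), Asns and Trib3 are other well known genes of that response.

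Total counts ran from 59113 to 234225 in control libraries and from 94179 to 657251 in MSNBA libraries, which is shallow, and MSNBA 1 alone held 41.1% of the MSNBA counts. A low-count filter, which at these depths amounts to about 67.5 CPM (a gene's share of its library's counts on a fixed scale), left 2614 genes with 79.2% of all counts. Of the enzyme genes, 4 passed it (Phgdh, Psph, Shmt2 and Mthfd2) and 6 did not (Psat1, Shmt1, Mthfd1l, Aldh18a1, Pycr1 and Cth). Levels are given as normalized CPM, for which the tested genes' total with TMM factors was the library size. Leydig markers were present, all 7 of 7 passing the filter, with a summed level of 7490 to 10905 CPM of full totals in controls and 7569 to 9388 CPM in MSNBA libraries. Summed markers of macrophages (6.87 to 50.1 CPM in controls, 10.6 to 26.6 in MSNBA) and endothelium (8.54 to 50.8 and 0 to 21.2 CPM) were below those of germ cells (124 to 226 and 123 to 231 CPM), and peritubular and fibroblast markers measured 51.2 to 156 and 22.8 to 127 CPM. None of these 4 lists had a gene past the filter. The Sertoli list measured 1161 to 2259 CPM in controls and 1095 to 1487 CPM in MSNBA libraries. Of its counts 91.1% were of Clu, which many cell types express, while over all 12 libraries Amh and Wt1 had 1 count each, Fshr 2, Rhox5 and Cldn11 4 each, Sox9 16, Gata1 48, Dhh 88 and Amhr2 110. In bulk RNA of this kind, fewer cells of a type and less RNA per cell cannot be told apart. Nothing in the labels tells whether the replicates of a group were grown separately, so each p-value reflects the spread among these libraries alone, and that spread may be technical.

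Promoter sequence is shown for 1 gene with a stress-response motif (Pycr1) and for 2 genes of serine synthesis with several CCAAT boxes (Psat1, and a short stretch of Psph), since the levels below are compared with those of Atf4 and Ddit3. RefSeq windows on GRCm38.p6 ran from 250 bases before to 50 after the start of transcription. They were matched for 9 of the 10 genes, with 2 windows for Psat1, and Cth was not matched. The starts used for Psph, Mthfd2 and the second Psat1 window lie inside the gene's mapped span, given below for each gene. Before those starts lie exon bases of Cct6a and Psph, of Mthfd2 and of Psat1 respectively. Bases before the Phgdh start also overlap exon bases of Phgdh. The Psph stretch printed below lies within exon bases shared by Psph and Cct6a (chr5:129786998-129787449). TGATGNAA, the composite element that C/EBP and Atf4 family dimers bind, was searched on both strands. It was found in 1 of the 9 genes, Pycr1, as TGATGCAA starting 103 bases before the start, while 3.97% of 32851 windows of that length hold it. CCAAT, the NF-Y box, was searched on both strands and reads ATTGG where it lies on the other one. It was present in 6 of the 9 genes (Phgdh, Psat1, Psph, Shmt1, Mthfd2 and Pycr1), against 37.4% of all windows, and at least 2 copies were present in 5 of them (all but Shmt1), against 11.7%. CACGTG, the E-box, was found only in Aldh18a1 of the 9 (7.15% of all windows), and TGACNNNGC in Phgdh and Psph (12.4%). None of these motifs was found in the windows of Shmt2 and Mthfd1l. In the sequences, all 5′ to 3′ on the gene's strand, capitals mark TGATGCAA and each CCAAT or ATTGG. These are matches of letters, and binding was not measured.
Pycr1, the 250 bases before the start, minus strand, chr11:120643749-120643998: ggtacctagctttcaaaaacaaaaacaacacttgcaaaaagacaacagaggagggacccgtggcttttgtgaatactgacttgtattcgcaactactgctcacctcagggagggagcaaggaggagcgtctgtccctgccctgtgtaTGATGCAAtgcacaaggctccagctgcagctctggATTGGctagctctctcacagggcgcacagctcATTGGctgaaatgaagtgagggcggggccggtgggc
Psat1, the 250 bases before the first start, minus strand, chr19:15925060-15925309: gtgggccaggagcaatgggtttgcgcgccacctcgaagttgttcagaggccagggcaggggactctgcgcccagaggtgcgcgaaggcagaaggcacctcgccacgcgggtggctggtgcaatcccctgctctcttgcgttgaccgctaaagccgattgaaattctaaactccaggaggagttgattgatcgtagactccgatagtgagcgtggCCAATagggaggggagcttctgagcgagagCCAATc
Psph, 30 bases around the CCAAT box nearer the start of its 2, minus strand, chr5:129787284-129787313: tgccgcccgctgATTGGcttaatccaacgc

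No difference between MSNBA and control passed the test for any of the enzyme genes. The sum of the 10 genes was 1113 ± 380 normalized CPM in controls and 1170 ± 176 in MSNBA libraries (SD, n = 6 per group), and the groups overlapped. The 4 genes deep enough to test had log2 differences between 0.033 and 0.20, while Atf4 itself had 0.60. By edgeR's quasi-likelihood test with Benjamini-Hochberg adjustment over 2614 genes, 0 of the 4 passed at 0.05, and 0 had an unadjusted p under 0.05. For all genes, 0 were higher (0%) and 2 were lower after adjustment, while at an unadjusted p under 0.05 the share was 4.17% for higher and 4.78% for lower genes. DESeq2, which gave a value for all 10, and limma-voom, which tested the same 4, also had 0 of these genes at an unadjusted p under 0.05. The median log2 difference of the 4 was 0.078, beside -0.0082 for all 2614 tested genes.

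**Figure D1:**
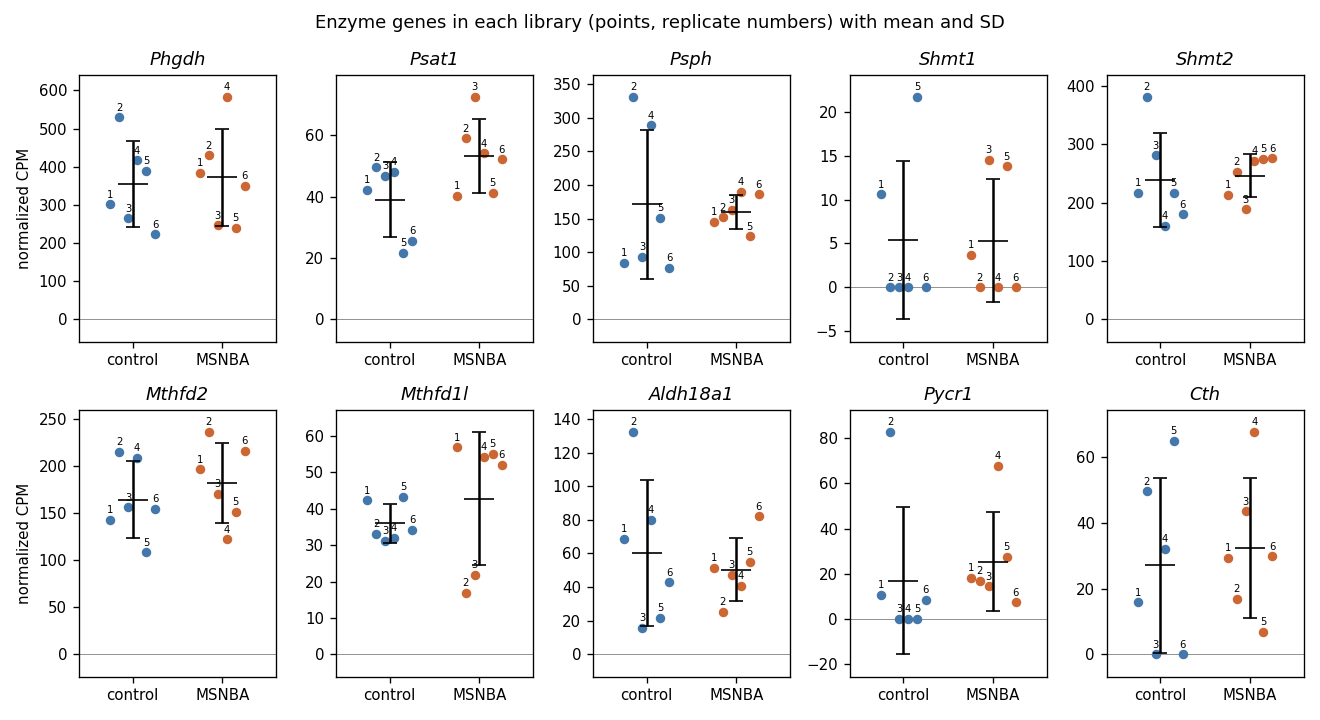
Level of each enzyme gene in normalized CPM (vertical axes, a separate scale for each gene) in the 6 control and 6 MSNBA libraries; points carry the replicate number, long bars are means and whiskers are SD. The groups overlap for each gene, and control 2 is the highest control for 7 of the 10.

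Phgdh encodes phosphoglycerate dehydrogenase, the first enzyme of serine synthesis, and lies on chromosome 3 (98313171 to 98339969, minus strand, of the mm10 assembly). Its level ran from 223 to 529 normalized CPM in controls with a median of 346, and from 241 to 583 in MSNBA libraries with a median of 367. Controls 2 and 4 and MSNBA 4 and 2 were the high libraries of their groups, and only MSNBA 4 lay above all controls. The means were 354 ± 113 and 372 ± 128 (SD, n = 6 per group). The log2 difference was 0.079 (SE 0.22, edgeR adjusted p = 0.949), with a 95% interval from 0.777-fold to 1.44-fold. A change of that size in either direction is within the interval, and equal levels are not shown.

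Psat1 encodes the aminotransferase that makes phosphoserine (chromosome 19, 15905123 to 15925059, minus strand). It had 21 counts over the 6 controls and 66 over the 6 MSNBA libraries, too few for the filter. Its level ran from 21.7 to 49.6 normalized CPM in controls (median 44.5) and from 40.4 to 72.5 in MSNBA libraries (median 53.2). Libraries MSNBA 2, 3, 4 and 6 lay above all controls, while controls 5 and 6, with 1 and 3 counts, were the low ones. Pooled over each group, MSNBA measured 1.31 times the control level, with an exact interval from 0.791 to 2.25. This and the other intervals on pooled counts cover counting error only. Fitted without the filter but with the scaling of the filtered genes, its log2 difference by edgeR was 0.41 (adjusted p = 0.766).

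Psph encodes phosphoserine phosphatase, the last step to serine (chromosome 5, 129765558 to 129787443, minus strand). In controls it ran from 77.1 to 331 normalized CPM with a median of 123, and in MSNBA libraries from 124 to 190 with a median of 158. Controls 2 and 4 stood high, at 331 (20 counts) and 289 (18 counts), and the other 4 controls lay between 77.1 and 152, and the 6 MSNBA libraries all lay below controls 2 and 4 and above controls 1, 3 and 6. The coefficient of variation was 65.1% in controls and 15.8% in MSNBA libraries, a contrast seen in the values and not tested. The controls rest on 6 to 20 counts each and the MSNBA libraries on 14 to 79, so counting error adds more to the spread of controls. With means of 171 ± 111 and 160 ± 25.2 (SD, n = 6 per group), the log2 difference was 0.078 (SE 0.29, edgeR adjusted p = 0.960), with an interval from 0.702-fold to 1.59-fold. DESeq2 gave -0.0023 and limma-voom 0.31 (adjusted p = 0.719). The 5′ end of Psph overlaps exons of Cct6a, a chaperonin subunit gene on the other strand, over 452 of 1733 exon bases in GENCODE M21, and whether counting used strand is not stated in the sources used here. Cct6a was below the filter, with 160 counts in all and 87.7 ± 45.9 normalized CPM in controls against 88.0 ± 29.1 in MSNBA libraries (SD, n = 6 per group).

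Of the folate genes, Shmt2 and Mthfd2 were deep enough to test and Shmt1 and Mthfd1l were not. Shmt2, the mitochondrial serine hydroxymethyltransferase (chromosome 10, 127517123 to 127522444, minus strand), ran from 160 to 381 normalized CPM in controls (median 217) and from 189 to 276 in MSNBA libraries (median 262). Control 2 was again the highest library, and no MSNBA library lay outside the control range. The log2 difference was 0.033 (SE 0.19, edgeR adjusted p = 0.977), with an interval from 0.781-fold to 1.34-fold. Shmt1, its cytosolic counterpart (chromosome 11, 60788897 to 60811265, minus strand), had 3 counts over the controls and 8 over the MSNBA libraries, with 0 counts in 4 controls and 3 MSNBA libraries. The pooled ratio of 1.11 has an interval from 0.267 to 6.51, so a difference was not detectable at this depth. A floor of 3 counts over a group is 5.57 normalized CPM in controls and 2.32 in MSNBA libraries, and Shmt1 sits at or near it.

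Mthfd2 encodes the mitochondrial methylenetetrahydrofolate dehydrogenase that many dividing cells express (chromosome 6, 83305704 to 83326011, minus strand). It ran from 108 to 215 normalized CPM in controls (median 155) and from 122 to 236 in MSNBA libraries (median 183). MSNBA 2 and 6 lay just above the highest control, control 2, and the other 4 lay inside the control range. The log2 difference was 0.20 (SE 0.21, edgeR adjusted p = 0.807), with an interval from 0.862-fold to 1.53-fold. Mthfd1l, the formate-producing enzyme of the mitochondrion (chromosome 10, 3972892 to 4167081, plus strand), had 20 and 58 counts. Its controls were close together, from 31.2 to 43.3 normalized CPM, while 4 MSNBA libraries lay above all of them (52.2 to 56.9) and 2 lay below all of them (16.9 in MSNBA 2 and 21.8 in MSNBA 3). Those 2 low values rest on 2 and 6 counts, and the 4 high ones on 4 to 31. The controls rest on only 2 to 8 counts each, so their closeness says little about their true spread. The pooled ratio was 1.21, with an interval from 0.716 to 2.12, and without MSNBA 1, which holds 31 of the 58 counts, its log2 turned from 0.27 to -0.039.

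In proline synthesis, Aldh18a1 encodes the enzyme that turns glutamate into the semialdehyde precursor (chromosome 19, 40550257 to 40588463, minus strand). It had 33 counts in controls and 66 in MSNBA libraries, with levels from 15.6 to 132 normalized CPM (median 55.8) and from 25.3 to 82.0 (median 49.3). Its pooled level in MSNBA was 0.834 times control (interval 0.541 to 1.31), and without control 2 the pooled log2 ratio went from -0.26 to -0.033. Pycr1, the mitochondrial reductase that completes proline (chromosome 11, 120638998 to 120643748, minus strand), had 8 and 26 counts. It was at 0 in controls 3, 4 and 5 and at 82.7 normalized CPM (5 counts) in control 2, whereas all 6 MSNBA libraries had at least 1 count, from 7.46 to 67.8 normalized CPM. The pooled ratio was 1.35 (interval 0.596 to 3.46), and the log2 of it moved from 0.44 to 1.68 without control 2, whose 5 counts are more than the other controls hold together.

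Cth, cystathionine gamma-lyase (chromosome 3, 157894248 to 157925081, minus strand), had 11 counts in controls and 40 in MSNBA libraries. Controls 3 and 6 had 0 counts, and controls reached 65.0 normalized CPM in control 5 on 3 counts. The MSNBA libraries ran from 6.88 in MSNBA 5 to 67.8 in MSNBA 4. The pooled ratio was 1.52, with an interval from 0.763 to 3.28, and its log2 moved from 0.60 to 0.25 without control 6. Leaving out control 2, 4 or 5 raised it instead, since each lay above the pooled control level of 20.4 normalized CPM. The library means were closer, at 27.1 ± 26.7 and 32.4 ± 21.4 normalized CPM (SD, n = 6 per group). None of the 6 genes below the filter had a pooled interval that left out 1, and without the filter, at the same scaling, their adjusted p-values by edgeR ran from 0.766 to 0.960.

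**Figure D2:**
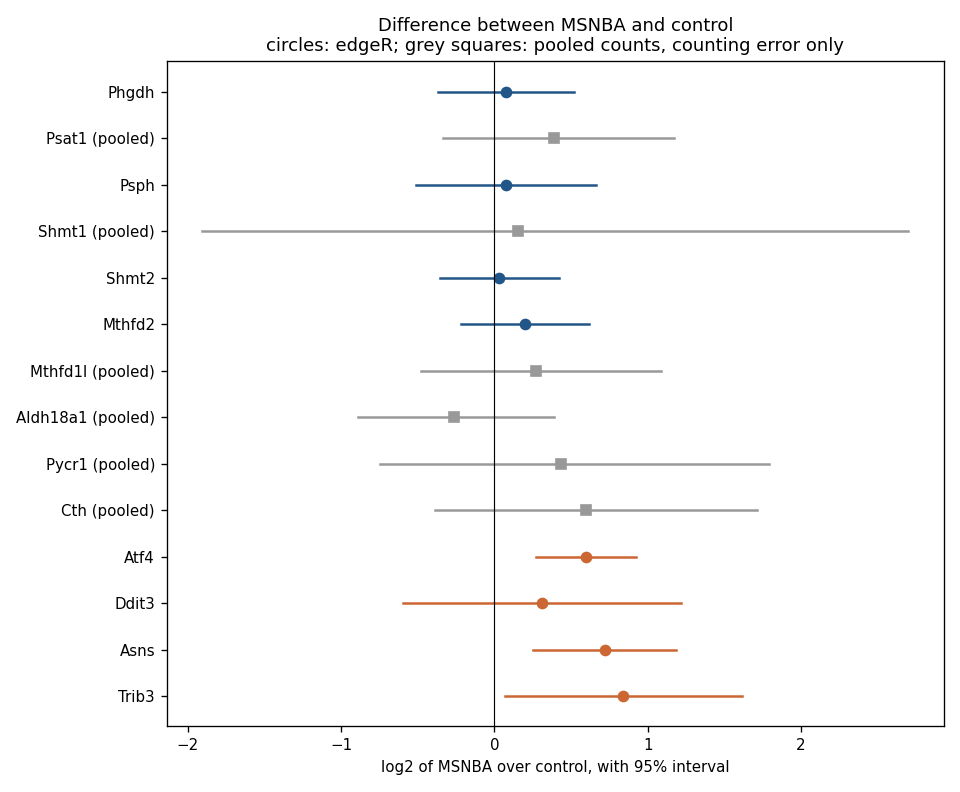
Difference between MSNBA and control on the log2 scale (horizontal axis) for each enzyme gene and for Atf4, Ddit3, Asns and Trib3. Circles are edgeR estimates with 95% intervals, and grey squares are ratios of pooled counts with intervals for counting error only; the intervals of the 10 enzyme genes include 0, and those of Atf4, Asns and Trib3 lie above it before adjustment.

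By role, the serine synthesis genes summed to 564 ± 226 normalized CPM in controls and 586 ± 144 in MSNBA libraries (SD, n = 6 per group). The one-carbon genes summed to 445 ± 96.0 and 476 ± 51.7. The proline genes summed to 77.2 ± 72.9 and 75.7 ± 23.1. The spread among controls was therefore wider than the distance between the groups in each role. Control 2 held the highest sum of the 10 genes, 1803 normalized CPM (exact interval 1481 to 2175), followed among controls by control 4 at 1267. Controls 6 and 3 were lowest, at 746 and 889. The MSNBA libraries lay between 983 in MSNBA 3 and 1450 in MSNBA 4. Controls 1 and 6, the deepest of their group, were among the low ones, at 936 and 746, and with log2 library depth in the model the median log2 difference of the 4 tested genes was 0.26, with 0 of them past the threshold.

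**Figure D3:**
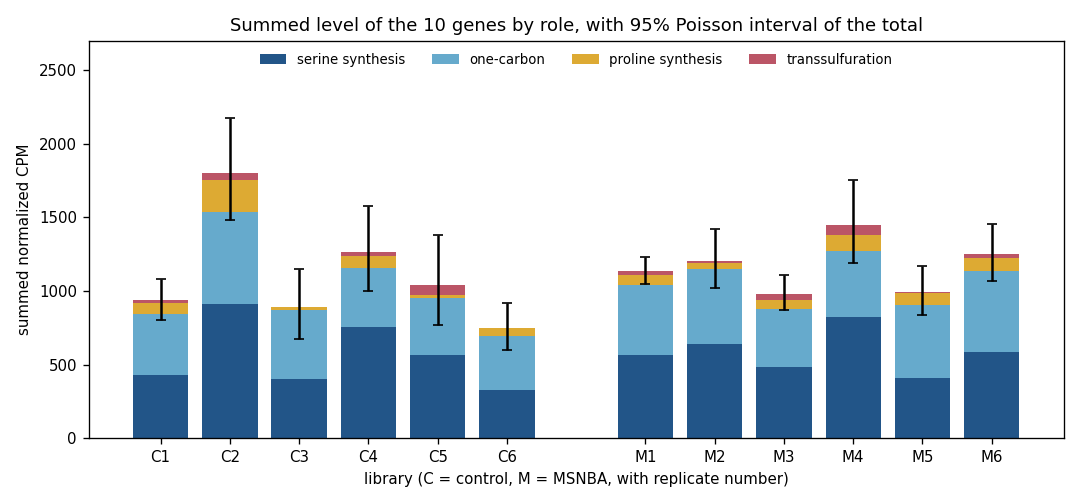
Summed normalized CPM of the 10 genes (vertical axis) in each library, split by role in colour; whiskers are exact 95% Poisson intervals of the total. Control 2 is highest at 1803 CPM, and the other controls, from 746 to 1267 CPM, overlap the MSNBA libraries, from 983 to 1450 CPM.

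Atf4 and the stress response genes Asns, Trib3 and Ddit3 are set beside these values. In a list of stress regulators and targets, which includes Atf4, Ddit3 and Trib3 but not Asns, 11 of 24 genes were tested. Of these 9 were above 0 and 2 below (Atf5 at -0.23 and Ppp1r15a at -0.0034), with a median of 0.31. By edgeR 0 passed after adjustment, and Atf4 and Trib3 were the 2 higher at an unadjusted p under 0.05, beside 4.17% of all genes. Atf4 ran from 203 to 401 normalized CPM in controls (median 294) and from 354 to 492 in MSNBA libraries (median 449), and 4 MSNBA libraries lay above all controls. Its log2 difference was 0.60 (SE 0.16), with an unadjusted p of 0.000637 and an adjusted p = 0.104 by edgeR. Asns, asparagine synthetase, ran from 78.0 to 224 in controls and from 176 to 283 in MSNBA libraries, a log2 difference of 0.72 (SE 0.23, adjusted p = 0.228). Trib3, a pseudokinase gene of the stress response, ran from 46.8 to 331 in controls and from 189 to 343 in MSNBA libraries, a log2 difference of 0.84 (SE 0.36, adjusted p = 0.480). Ddit3, which encodes a partner of C/EBP factors, ran from 546 to 2879 in controls and from 929 to 2371 in MSNBA libraries, with a log2 difference of 0.31 (SE 0.41, adjusted p = 0.866). The value for Ddit3 was 0.75 without control 2 (adjusted p = 0.532), 0.16 without control 3 and 0.13 without MSNBA 6. In Ddit3, Asns and Trib3 alike, controls 2 and 4 were the highest controls. It held only just for Atf4, with 298 normalized CPM in control 2 and 296 in control 1. Of the tested enzyme genes it held for Phgdh, Psph and Mthfd2 but not for Shmt2. Below the filter it held for Psat1 and Aldh18a1 but not for Shmt1, Mthfd1l, Pycr1 and Cth. The part that the stress gene levels of controls 2 and 4 play in the differences of the enzyme genes was not tested.

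Leaving out controls 2 and 4, a choice that came from earlier results of these data, moved Psph most among the 4 tested enzyme genes. Its log2 difference became 0.76 (SE 0.26, unadjusted p = 0.00592, edgeR adjusted p = 0.303). Phgdh had 0.32, Mthfd2 0.37 and Shmt2 0.12 in that fit, with adjusted p-values of 0.705, 0.653 and 0.919, and the median of the 4 was 0.35 beside 0.00073 for all genes. In the same fit Asns (1.14, adjusted p = 0.0175) and Trib3 (1.56, adjusted p = 0.00276) passed, Atf4 (0.71, adjusted p = 0.0623) and Ddit3 (1.02, adjusted p = 0.264) did not, and 4 genes in all were higher. Among the genes below the filter, the pooled log2 ratio became 1.48 for Pycr1, 1.10 for Cth and 0.50 for Psat1. Since the libraries were left out for their high levels of stress genes, these values are no independent evidence. Phgdh, Psph and Mthfd2 were also highest among controls in the same 2 libraries, so leaving these libraries out raises the differences of those genes.

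Whether the enzyme genes followed Atf4 within groups was tested as a slope on the log2 CPM of Atf4 with treatment in the model. The slope was 1.14 for Psph (SE 0.68, unadjusted p = 0.105), 0.29 for Mthfd2 (SE 0.51), -0.22 for Phgdh (SE 0.52) and -0.64 for Shmt2 (SE 0.46). By edgeR 0 of the 4 passed and 0 had an unadjusted p under 0.05, while over 2613 genes 0 rose with Atf4 after adjustment (0%) and 2.83% did at an unadjusted p under 0.05. The 95% intervals were wide, from -0.25 to 2.53 for Psph and from -1.30 to 0.86 for Phgdh. A slope of 1, a level proportional to that of Atf4, lay inside the first and outside the second. Atf4 rested on 12 to 56 counts in the controls. The error of its own level, which can pull a slope towards 0, is not in these intervals. The slope of Psph was 1.61 with depth in the model (unadjusted p = 0.00674, adjusted p = 0.455), 0.46 without control 4 and -0.074 without controls 2 and 4, and it passed in none of these fits. Sequencing measures the mRNA of Atf4 and not its protein, which is set largely by translation.

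A slope on Ddit3 in place of Atf4 was added after the values were seen, and it is not independent of them. Psph rose with Ddit3 with a slope of 0.79 (SE 0.18, 95% interval 0.43 to 1.15, edgeR adjusted p = 0.0151), rank 11 of 2613 genes by p. Over all genes 17 rose, which is 0.651%, and 6.16% had an unadjusted p under 0.05. Phgdh had a slope of 0.36 (SE 0.16, unadjusted p = 0.0257, adjusted p = 0.286), Mthfd2 0.25 (SE 0.17, adjusted p = 0.590) and Shmt2 0.18 (SE 0.16, adjusted p = 0.690). Trib3 rose with Ddit3 too (0.80, adjusted p = 0.0171), while Asns had 0.58 (adjusted p = 0.0780). Genes outside the stress response did so as well. Of the 7 Leydig markers, 6 had slopes above 0 and 2 rose after adjustment by edgeR, beside 0.651% of all genes. The call for Psph was lost without 1 library: leaving out control 2, the highest in Ddit3 at 2879 normalized CPM, gave a slope of 0.75 with an adjusted p = 0.275, and 3 genes rose in all. Without control 3 the number rising was 37 and without MSNBA 6 it was 10, with Psph past the threshold in both. Within controls alone the slope of Psph was 0.95 (adjusted p = 0.0376), and within MSNBA libraries alone it was 0.43 (adjusted p = 0.770). With controls 2 and 4 both out it was 0.35 (adjusted p = 0.911), and without the 2 libraries farthest from the median of Ddit3 it was 0.75 (adjusted p = 0.260). With the replicate number as a block it was 0.86 (adjusted p = 0.173), and with library depth in the model 0.74 (adjusted p = 0.0234).

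**Figure D4:**
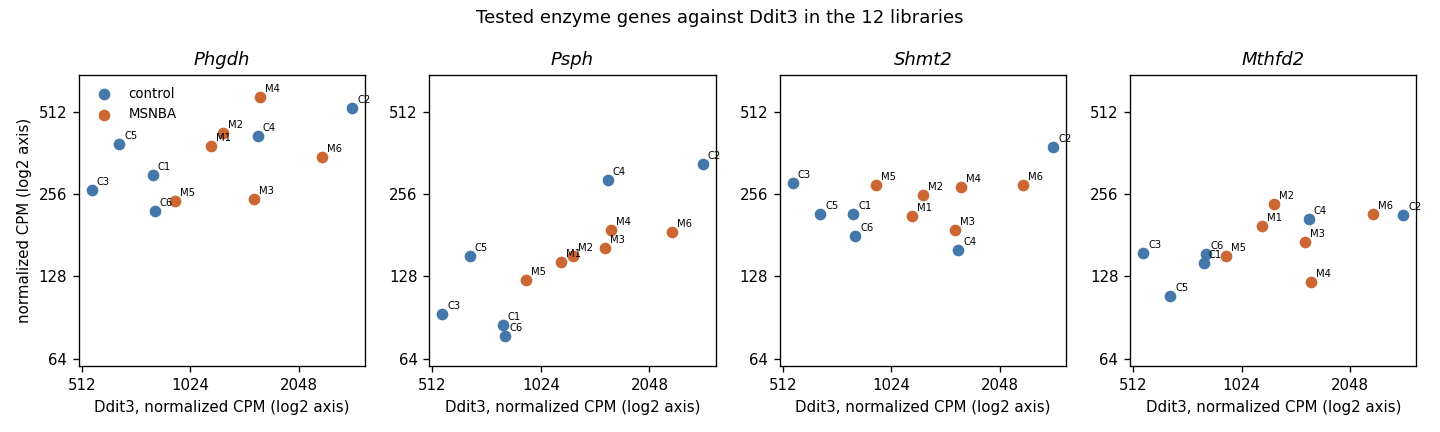
Normalized CPM of Phgdh, Psph, Shmt2 and Mthfd2 (vertical axis, log2) against normalized CPM of Ddit3 (horizontal axis, log2) in the 12 libraries, labelled by group and replicate. Psph is highest in controls 2 and 4 (331 and 289 CPM), which also have the highest Ddit3 of the controls, and Shmt2 is highest in control 2 (381 CPM).

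The genes most like the 4 tested enzyme genes, by Pearson r with the mean of their standardized log2 CPM over the 12 libraries, were Elovl1 (0.88), Prrg2 (0.83), Cox7a2l (0.83), Akt2 (0.83) and Mars1 (0.81). Elovl1 encodes a fatty acid elongase, Cox7a2l an assembly factor of respiratory supercomplexes, Akt2 a kinase of insulin signalling and Mars1 the cytosolic methionyl-tRNA synthetase. They were picked as the highest of 2610 genes, so the values describe the libraries and carry no test. For Mars1 the likeness was 0.93 within controls and 0.21 within MSNBA libraries, and for Akt2 it was 0.78 and 0.98. Atf4 had an r of 0.21 and stood at rank 755.

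The other genes of the surrounding pathways were counted from lists of textbook members. After adjustment over all genes, 0 of them passed by edgeR, and the same held for DESeq2 and limma-voom. In the folate cycle, 6 of 24 were tested, with 4 values above 0 and 2 below, a median of 0.0072 and 2 higher at an unadjusted p under 0.05, a share that is 4.17% over all genes. These were Aldh1l1, which oxidizes formyl-folate in the cytosol, and Qdpr, a dihydropteridine reductase. Aldh1l1 measured 119 ± 56.9 normalized CPM in controls and 211 ± 19.9 in MSNBA libraries (SD, n = 6 per group), a log2 difference of 0.67 (SE 0.22, edgeR adjusted p = 0.228). Qdpr measured 107 ± 44.8 and 164 ± 36.6, a difference of 0.61 (SE 0.25, adjusted p = 0.401). With depth in the model Aldh1l1 had 0.47 (unadjusted p = 0.0614), and without control 6 Qdpr had 0.45 (unadjusted p = 0.0900). In glycine breakdown only Gcat of 7 genes was tested, at -0.011 (SE 0.25, edgeR adjusted p = 0.994), with a sign that turned by DESeq2 (0.017).

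In the methionine cycle and transsulfuration, 7 of 24 genes were tested, with 4 values above 0 and 3 below, a median of 0.075 and 0 at an unadjusted p under 0.05. The deepest of them, Ahcyl1, an adenosylhomocysteinase-like protein gene, had 0.075. Of the other proline and glutamate genes 11 of 23 were tested, with 5 above 0, 6 below and a median of -0.14. Asns and Gpt were the 2 higher at an unadjusted p under 0.05, beside 4.17% of all genes, and Gpt, alanine aminotransferase, had a log2 difference of 0.51 (SE 0.19, edgeR adjusted p = 0.373). Without control 6 the value for Gpt was 0.34 (unadjusted p = 0.0845).

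Among genes of serine use and transport 6 of 20 were tested, 3 above 0 and 3 below, with a median of -0.054. Slc1a5, a sodium-coupled carrier of neutral amino acids including serine and glutamine, measured 61.1 ± 32.5 normalized CPM in controls and 133 ± 52.0 in MSNBA libraries (SD, n = 6 per group). Its log2 difference was 1.08 (SE 0.29, edgeR adjusted p = 0.104). Without the filter it passed (1.21, adjusted p = 0.0348), a setting that moved the median of the 2614 genes to 0.14, and with the filtered genes' scaling kept it did not (1.08, adjusted p = 0.121). In glycolysis, which supplies the 3-phosphoglycerate for serine, 15 of 16 genes were tested, with 10 above 0, 5 below and a median of 0.14. Here 3 were lower at an unadjusted p under 0.05, beside 4.78% of all genes: Pfkl, a phosphofructokinase, at -0.56 (SE 0.16, adjusted p = 0.174), Pkm, pyruvate kinase, at -0.21 (SE 0.087, adjusted p = 0.401), and Gapdh at -0.19 (SE 0.089, adjusted p = 0.492). With library depth in the model Pfkl had -0.44 (unadjusted p = 0.0188), while Pkm had -0.14 (unadjusted p = 0.172) and Gapdh -0.072 (unadjusted p = 0.449). Cell division genes, whose nucleotide demand one-carbon units serve, had a median of 0.081 over 14 tested of 20, with summed levels of 1229 to 2352 CPM of full totals in controls and 1349 to 2401 CPM in MSNBA libraries.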

How the data were processed

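PolyA RNA of 12 mLTC-1 samples was sequenced from tagmented libraries, 6 control and 6 MSNBA by the labels. The authors deposited raw counts per gene symbol, 1 column a library, with no normalization. The table's name hints at unique molecular identifiers, but the labels do not say whether reads or molecules were counted, and if reads, the counting intervals are too narrow. Per the submitters' processing notes, BWA 0.7.4.4 and the mm10 assembly were used, while the sources used here name no counting program, annotation or strand setting.

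Counts were analysed in R 4.3.3 with edgeR 4.0.16 (filterByExpr with the groups, TMM, robust quasi-likelihood F test, two-sided p-values adjusted by Benjamini-Hochberg over all tested genes, threshold 0.05), with DESeq2 1.42.0 and limma 3.58.1 (voom) as alternatives. The steps were tested on simulated data. Slopes used log2 CPM with a prior count of 2. Pooled counts carry exact 95% intervals, from the Poisson distribution for levels and from a conditional binomial for ratios, without the spread between libraries.

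The named genes are the 10 enzyme genes, Atf4, Ddit3, Asns and Trib3, from each pathway list up to 4 genes with an unadjusted p under 0.05 or else the deepest, and the 5 genes most like the tested enzyme genes. The genes, lists and rule were chosen with earlier results of these data known, and the slope on Ddit3 and the unfiltered fit with the filtered genes' scaling were added after these values were seen.

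Alternatives were other tests, scalings and filters, a replicate block, depth as a covariate, controls 2 and 4 left out, each group alone and each library left out in turn.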

Additional observations from a re-analysis of the deposited data

Results flagged for a closer look

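In each group of 6 libraries, the enzyme genes and Atf4, Ddit3, Asns and Trib3 were examined for a single library far from the others, by the gap to its neighbour as a share of the group's range (Dixon's test at 95%). Of 28 groups examined, 3 held such a library. For normal values of equal spread chance gives about 1 in 20 groups, or 1.4. Low counts and unequal depths depart from that, so the figure is a rough guide only. Pycr1, which completes proline synthesis, measured 82.7 normalized CPM in control 2 on 5 counts, and the next control had 10.6. Pycr1 also measured 67.8 normalized CPM in MSNBA 4, again on 5 counts, and the next MSNBA library had 27.5. Asns, asparagine synthetase, measured 283 normalized CPM in MSNBA 6 on 38 counts, and the next MSNBA library had 200.0.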

How the results depend on the processing

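None of the 10 enzyme genes passed the threshold between MSNBA and control under any alternative that tested it. The genes called higher, 0 in the reported test, were 8 without the low-count filter, 4 without controls 2 and 4, and 0 to 1 with 1 library left out. The genes called lower, 2 in that test, were 0 by DESeq2, 0 by limma-voom, 7 without the filter, 1 with 20 counts in 6 libraries, 0 with depth as a covariate and 0 to 5 with 1 library left out. The median of the 2614 genes moved to 0.14 without the filter, where Atf4 (0.74, adjusted p = 0.0474), Trib3 (0.98, adjusted p = 0.0320) and Slc1a5 passed by edgeR. With the scaling of the filtered genes kept, an alternative chosen after seeing the data, the median stayed at -0.0084, 1 gene was higher and 8 lower, and Atf4 (0.60, adjusted p = 0.227), Trib3 (0.84, adjusted p = 0.123) and Slc1a5 did not pass. Psph turned to -0.0023 by DESeq2 and was 0.31 by limma-voom, where the median of the 2614 genes was 0.0094 and -0.0086. Gcat turned to 0.017 by DESeq2, 0.00025 with library size alone and 0.14 without the filter. The median of the 2614 genes was 0.0094, 0.00013 and 0.14 in those settings. With 1 library left out the log2 difference ran from -0.049 to 0.22 for Phgdh, -0.18 to 0.37 for Psph, -0.054 to 0.18 for Shmt2, -0.11 to 0.099 for Gcat and -0.0089 to 0.15 for Ahcyl1. For the slope on Atf4, 1 gene rose with depth as a covariate, and 7 rose and 8 fell with no treatment term. That slope was 0.0072 for Phgdh with no treatment term, 0.65 in controls alone and -0.61 to 0.14 with 1 library left out. For Phgdh it was also -0.98 without controls 2 and 4. In MSNBA libraries alone it was -1.51 (unadjusted p = 0.0367, adjusted p = 0.999 by edgeR). Without controls 2 and 4 it was -0.074 for Psph and -0.13 for Mthfd2, and in MSNBA libraries alone -0.080 for Mthfd2. For the slope on Ddit3, 17 genes rose and 8 fell. The numbers were 0 and 0 without controls 2 and 4, 10 and 4 in controls alone, and 0 and 0 in MSNBA libraries alone. They were 3 to 37 and 1 to 17 with 1 library left out, and 4 fell by limma-voom, 14 with depth and 5 without the 2 farthest libraries. The enzyme gene called there, Psph, was not called without controls 2 and 4, without the 2 farthest or in MSNBA alone (0 in each), and the count was 0 to 1 with 1 library left out. The slope of Shmt2 on Ddit3 was -0.052 without controls 2 and 4, -0.047 without the 2 farthest and -0.14 to 0.26 with 1 library left out. The cause of these moves was not tested. Depth limits the 6 genes below the filter, which had from 3 to 33 counts over the control libraries.

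The groups share replicate numbers. Same-number libraries had residual correlations from -0.14 to 0.37, above 0.1 in 2 of 6 pairs. The highest, 0.37, was for replicate 1, the deepest library of each group. Counting noise at these depths lowers such correlations, so they cannot tell whether the numbers pair the libraries. With the replicate number as a block, 0 enzyme genes passed between MSNBA and control, 0 genes were higher and 3 lower, and the log2 difference of Psph was 0.16. In the slope on Ddit3 with the block, 0 genes rose, 0 fell and 0 enzyme genes were called (Psph 0.86, adjusted p = 0.173 by edgeR). The slope of Psph on Atf4 with the block was 1.68 (unadjusted p = 0.0118, adjusted p = 0.869 by edgeR).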
